A study of Homo sapiens with 8 samples.

Results

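Long intergenic non-coding RNAs carry symbols that begin with LINC. They were read here in HepG2 cells, derived from a human liver cancer, and in LX2 cells, which stem from human hepatic stellate cells, each with and without CM272. LINC genes were chosen by their signal: both arrays of some group had to read over 4 log2, with the brightest probe set (mean over the 8 arrays) standing for each symbol. The choice used no comparison between groups. Of 459 LINC symbols on the array, 244 met this rule, among 12239 genes of all kinds that did, and all 244 have the biotype lncRNA in RefSeq. The other 215 were too dim. Just inside the threshold lay LINC00606 and LINC01829, whose lower array in their best group read 4.01 and 4.02, and just outside it lay LINC00622 at 3.996 and LINC00159 at 3.99. Because the rule used the signal itself, a gene that passed only through the group in which it is high had to differ, and counts over the kept genes are a description.

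The groups were HepG2 CM272, HepG2 control, LX2 CM272 and LX2 control, with 2 arrays in each. CM272 is an inhibitor of 2 enzymes at once, G9a (a histone methyltransferase) and DNMT1 (a methyltransferase of DNA), and was given at 400 nM for 48 h, and control cells received 0.1% DMSO. HepG2 was kept in 10% fetal bovine serum and LX2 in 2%, so line and serum cannot be told apart. Both are established lines. Whether the arrays of a group stem from separate cultures is not in the labels, so a p-value measures the spread between arrays, which may be technical.

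LincRNAs are transcribed by RNA polymerase II from stretches between protein-coding genes. They are spliced and capped like messenger RNAs, but most are not known to make a protein. Many are found in few cell types and at low levels. G9a places methyl groups on lysine 9 of histone H3, and DNMT1 copies cytosine methylation at CG dinucleotides after replication. Both marks go with silent promoters, and lincRNA promoters can carry either. In the liver, LINC00261 stands beside the endoderm factor gene FOXA2, and several other LINC genes have been studied in liver cancer.

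Since DNMT1 acts on CG dinucleotides, the promoters of 4 LINC genes are shown first: LINC00161 and LINC00673, which were higher in LX2 with CM272, and LINC00842 and LINC01085, which had the largest falls there. Each run covers 250 bases before the RefSeq start and 50 bases after it, 300 in all, on GRCh38.p14, written 5′ to 3′ on the gene's own strand with every CG in capitals.
LINC00161 (chr21:28539068-28539367, plus strand): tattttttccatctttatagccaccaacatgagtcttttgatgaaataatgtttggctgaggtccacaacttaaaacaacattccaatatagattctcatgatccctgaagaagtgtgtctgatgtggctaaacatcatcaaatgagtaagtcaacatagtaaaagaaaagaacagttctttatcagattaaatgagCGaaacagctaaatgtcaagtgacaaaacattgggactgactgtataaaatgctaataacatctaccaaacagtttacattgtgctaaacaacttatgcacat
LINC00673 (chr17:72592755-72593054, minus strand): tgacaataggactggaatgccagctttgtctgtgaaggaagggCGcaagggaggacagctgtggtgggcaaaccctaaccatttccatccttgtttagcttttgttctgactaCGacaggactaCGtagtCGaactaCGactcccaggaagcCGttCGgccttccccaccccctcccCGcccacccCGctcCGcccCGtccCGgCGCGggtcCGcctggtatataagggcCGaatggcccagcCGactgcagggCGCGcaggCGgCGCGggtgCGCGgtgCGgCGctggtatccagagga
LINC00842 (chr10:46398112-46398411, plus strand): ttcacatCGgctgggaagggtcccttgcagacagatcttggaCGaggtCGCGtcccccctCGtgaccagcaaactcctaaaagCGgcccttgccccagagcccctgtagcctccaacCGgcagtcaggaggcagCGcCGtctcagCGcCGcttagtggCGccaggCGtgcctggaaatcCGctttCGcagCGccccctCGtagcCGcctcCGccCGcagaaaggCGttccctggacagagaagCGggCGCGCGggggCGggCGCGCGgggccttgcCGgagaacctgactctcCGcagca
LINC01085 (chr4:14111718-14112017, plus strand): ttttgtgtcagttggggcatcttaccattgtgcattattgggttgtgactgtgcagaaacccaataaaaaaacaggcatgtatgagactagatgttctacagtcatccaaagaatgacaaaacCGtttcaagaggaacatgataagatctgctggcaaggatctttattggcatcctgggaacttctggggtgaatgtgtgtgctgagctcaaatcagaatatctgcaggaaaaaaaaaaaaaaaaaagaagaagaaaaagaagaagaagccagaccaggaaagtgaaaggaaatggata
The first promoter and the fourth hold 1 CG each, LINC00673 holds 26 and LINC00842 holds 31. LINC00673 is shown as the 1 with a CG-dense promoter among the 6 rising genes whose promoter could be matched, not for the size of its rise. Sequences are credited to RefSeq.

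CM272 moved a small number of LINC genes in LX2. In that line 11 LINC genes rose and 6 fell (limma, adjusted p under 0.05 by Benjamini-Hochberg over all 12239 genes). The wells were measured in bulk, so fewer cells with a transcript and less transcript per cell cannot be told apart. The 11 are 4.51% of the LINC genes, beside a background of 3.79% of all genes called higher, and the 6 are 2.46%, beside 4.63% called lower. Other RefSeq lncRNAs gave like shares, with 4.75% of 652 higher and 2.45% lower, and protein-coding genes gave 3.72% and 4.93% of 10431. Of the 11 that rose, 6 were over the brightness threshold only in LX2 CM272 (LINC00161, LINC00624, LINC00520, LINC01160, LINC01088 and LINC01349), so their place among the kept genes came from the group in which they are high. The median change was 0.03 log2 over the LINC genes and -0.02 over all genes. The count depended on the LX2 control arrays: 2 LINC genes passed without LX2 control replicate 1 (beside 0.786% of all genes), 1 without replicate 2 (beside 0.446%), and 34 of 274 passed without LX2 CM272 replicate 2 (beside 20% of all genes). The split of 11 higher and 6 lower became 8 and 8 with array medians set equal (beside 9.01% of all genes called in either direction). It became 3 and 8 with the filter at log2 6 (beside 18%) and 2 and 4 with array weights (beside 2.31%).

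LINC00161 (chromosome 21), whose promoter heads the group above, rose most. It read 5.80 and 6.48 log2 in LX2 CM272, against 3.12 and 3.69 in LX2 control. The CM272 arrays lay far above both controls, which were under the brightness threshold, so the fold is not exact. The change was 2.73 log2 (SE 0.25), a 6.65-fold rise, with adjusted p = 6.364e-04 in limma. It was the only one of the 17 LINC genes called in LX2 that stayed past the test in each alternative processing in which it was fitted. With the filter at log2 6 it was not kept. LINC00624 (chromosome 1), reported to bind the RNA-editing enzyme ADAR1 in breast cancer cells, read 4.50 and 4.68 in LX2 CM272 and 3.22 and 2.90 in LX2 control. Its change was 1.53 (SE 0.28, adjusted p = 0.01448), again from a dim control. These were the 2 LINC genes that rose at least 2-fold.

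The other rises were under 1 log2. LINC00520 (chromosome 14), known as LEENE and as an enhancer-derived RNA that raises endothelial nitric oxide synthase in endothelial cells, read 5.04 and 4.73 in LX2 CM272, against 3.79 and 4.08 in LX2 control (0.95, SE 0.18, adjusted p = 0.01743). LINC01160 (chromosome 1) read 4.62 and 4.57, against 3.77 and 3.62 in control (0.90, SE 0.13, adjusted p = 0.006727). In both genes the control arrays lay near or under the threshold, below both treated arrays. LINC00640 (chromosome 14) read 5.64 and 5.84 in LX2 CM272, against 4.84 and 5.03 in control, a change of 0.81 (SE 0.15). LINC01164 (chromosome 10) read 5.11 and 4.78, against 4.12 and 4.19 (0.79, SE 0.17). LINC01630 (chromosome 18) read 6.04 and 6.53, against 5.57 and 5.48 (0.76, SE 0.18). These 3 were over the threshold in both LX2 groups, and their adjusted p-values ran from 0.01453 to 0.03147.

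LINC00673 (chromosome 17) is also called SLNCR, lies near the transcription factor gene SOX9 and has been linked to pancreatic cancer risk. It read 5.60 and 5.47 in LX2 CM272, against 4.93 and 4.76 in LX2 control (0.69, SE 0.14, adjusted p = 0.02152). It was thus over the threshold in all arrays, with the CG-dense promoter shown above. LINC01088 (chromosome 4) read 4.20 and 4.40 in LX2 CM272 and 3.48 and 3.69 in control (0.71, SE 0.15). LINC01349 (chromosome 1) read 4.48 and 4.47, against 3.69 and 3.87 (0.69, SE 0.19), and with adjusted p = 0.04971 it lay at the edge of the test. LINC00862 (chromosome 1) read 3.94 and 3.92 in LX2 CM272 and 3.05 and 3.39 in control (0.71, SE 0.16), under the threshold in every LX2 array, so that this change is one of dim signals.

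The 6 LINC genes that fell were all over the threshold in both LX2 groups. LINC01085 (chromosome 4) read 5.33 and 5.53 in LX2 CM272, against 6.78 and 6.60 in LX2 control, a change of -1.26 (SE 0.17, adjusted p = 0.004987) or 2.39-fold lower. LINC00842 (chromosome 10) read 4.62 and 4.79, against 5.80 and 5.92, a change of -1.15 (SE 0.14, adjusted p = 0.003056) or 2.22-fold lower. In each the treated arrays lay about a log2 step below the controls, and no other LINC gene that fell in LX2 reached 2-fold. LINC00294 (chromosome 11) read 5.44 and 5.80 in LX2 CM272, against 6.45 and 6.57 in control (-0.89, SE 0.16). LINC00641 (chromosome 14) read 6.13 and 6.31, against 6.92 and 7.08 (-0.78, SE 0.14). LINC00665 (chromosome 19), reported to encode a micropeptide in breast cancer cells, read 4.80 and 5.02, against 5.68 and 5.62 (-0.74, SE 0.16). The controls of these 3 were tight, and the CM272 arrays lay below both of them. LINC00674 (chromosome 17) read 6.83 and 6.91 in LX2 CM272 and 7.46 and 7.60 in control (-0.66, SE 0.14). Adjusted p-values of the last 4 ran from 0.01327 to 0.02558.

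**Figure D1:**
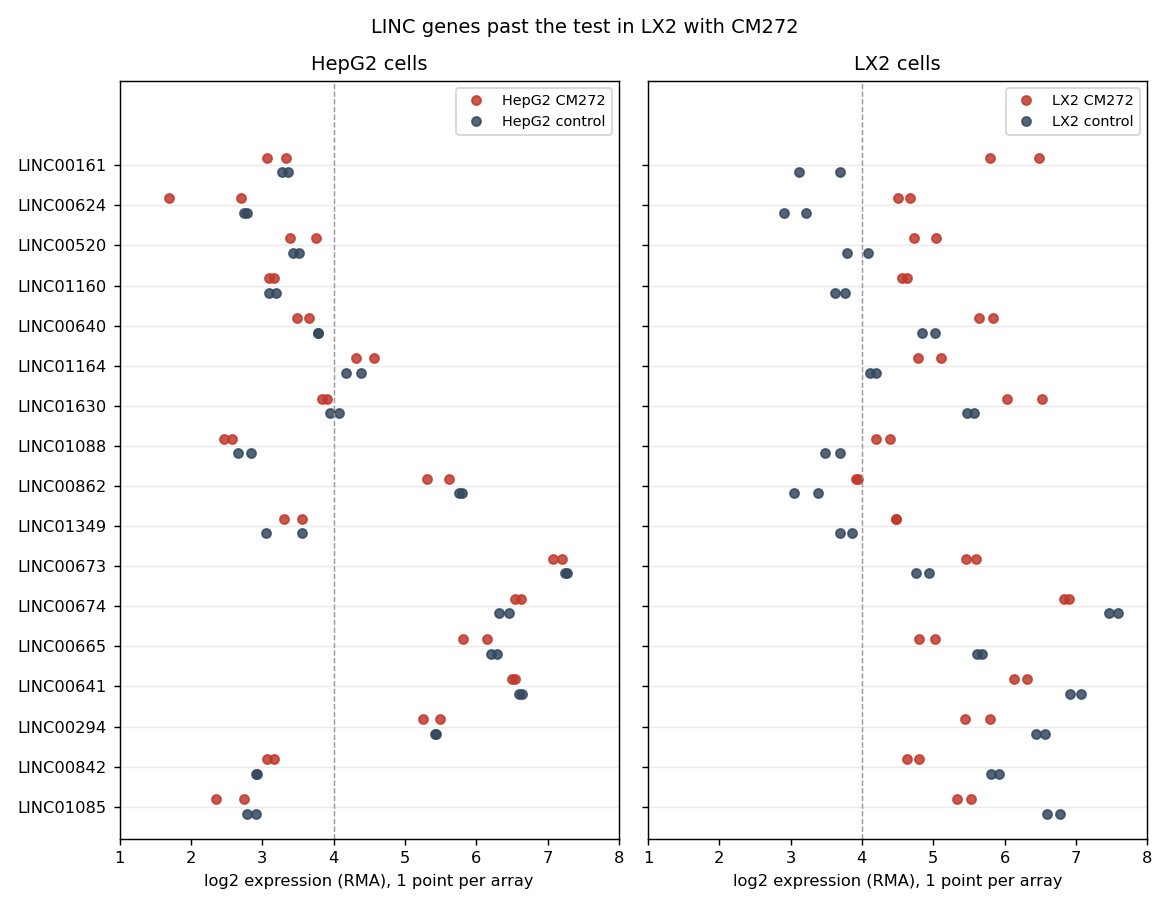
Log2 expression of the 17 LINC genes past the test in LX2, 1 point per array, in HepG2 (left) and LX2 (right), CM272 in red and control in dark blue, with the brightness threshold of 4 as a dashed line. In LX2 the 2 CM272 arrays lie beyond both control arrays for each of the 17 genes, and in HepG2 the same genes shift by -0.56 to 0.20 log2.

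All 17 had CM272 arrays that did not overlap the control arrays in LX2, and they were 6.97% of the LINC genes beside 8.42% of all genes called in either direction. Without any test, 70 LINC genes (28.7%) lay wholly above control, beside 23.5% of all genes, and 37 (15.2%) wholly below, beside 28.6%. LX2 CM272 arrays were the least alike: the median difference between replicates over the LINC genes was 0.28 log2 in LX2 CM272, 0.16 in LX2 control, 0.20 in HepG2 CM272 and 0.17 in HepG2 control. The part of this spread in the results was not tested beyond the left-out arrays given above.

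Where a LINC gene has several probe sets, they did not always give the same reading. Of the 17, 4 genes had 7 further probe sets, and 6 of the 7 moved in the same direction as the one used. On the other probe set LINC00674 had a change of -0.72, LINC00665 one of -0.11 and LINC00641, at a dim signal, one of 0.13. With the median of probe sets the calls of LINC00665 and LINC00641 were lost (adjusted p = 0.1219 and 0.2057 in limma). LINC01088, with a change of 0.71 above, read 4.65 and 5.20 in LX2 CM272 on another probe set, against 2.50 and 2.44 in LX2 control (2.45, SE 0.21). A further probe set read 4.12 and 4.77 in CM272, against 2.73 and 3.19 (1.48, SE 0.24). Its 2 others had changes of 0.28 and 0.41. The 5 probe sets of LINC01088 thus had positive changes, by unequal amounts, and on the 2 printed by array the controls were dim, so those folds are not exact. When each probe set was fitted on its own, a choice made after seeing the data in which 7.92% of probe sets were called in LX2, the adjusted p-values of these 2 in limma were 4.279e-04 and 0.01017. Both were over the threshold only in LX2 CM272, the group in which they are high, so these p-values are tied to how the probe sets were chosen.

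LINC01554 (chromosome 5), a LINC gene known from liver, showed the widest split between probe sets, and it was singled out after its values were seen. On its brightest probe set it read 5.39 and 5.04 in LX2 CM272 and 5.13 and 4.84 in LX2 control, groups that overlapped (0.23, SE 0.21, adjusted p = 0.5412). On its second probe set it read 7.12 and 7.42 in LX2 CM272, against 4.0002 and 3.91 in LX2 control. Fitted on its own, that probe set rose by 3.32 log2 (SE 0.16), with adjusted p = 6.51e-06 in limma. Its control arrays lay at the brightness threshold, so the size of the change is not exact. This probe set was over the threshold only in LX2 CM272, the group in which it is high, so its tests are tied to how it was chosen. In HepG2 the second probe set read 3.35 and 3.04 with CM272, against 3.26 and 3.23 in control, all of them dim (-0.06, SE 0.16). The effects of HepG2 and LX2 differed by -3.37 there (adjusted p = 1.315e-04). The closest tested gene before it in RefSeq order was GLRX, which encodes the thiol enzyme glutaredoxin. GLRX rose in LX2 by 1.47 (SE 0.17, adjusted p = 0.003008 in limma). The closest after it was CAST, which encodes the protease inhibitor calpastatin and differed by -0.35 (SE 0.13, adjusted p = 0.1241). The bases that each probe set covers were not used here.

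In HepG2 no LINC gene passed the test, with or without the alternatives run, beside a background of 0.00817% of all genes called lower and 0% called higher. At an unadjusted p under 0.05, 18 LINC genes were higher (7.38%, beside 4.76% of all genes) and 15 lower (6.15%, beside 6.7%). The median change was -0.02 log2, the same as over all genes, and the changes ran from -1.12 to 0.81. Arrays did not overlap for 49 LINC genes with higher CM272 values (20.1%, beside 20.7% of all genes) and 59 with lower ones (24.2%, beside 28.2%). LINC-PINT (chromosome 7), a p53-induced RNA that interacts with the Polycomb complex PRC2, had the lowest value. It read 8.11 and 7.43 in HepG2 CM272, against 9.12 and 8.65 in HepG2 control; the groups did not overlap (-1.12, SE 0.23, 95% interval -1.64 to -0.59, adjusted p = 0.2274).

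LINC00941 (chromosome 12), studied in keratinocyte differentiation, read 4.67 and 4.56 in HepG2 CM272 and 6.05 and 5.05 in HepG2 control (-0.93, SE 0.27, adjusted p = 0.2799), and the control arrays lay a full log2 step apart. LINC02800 (chromosome 1) read 4.14 and 4.32, against 5.25 and 4.99 (-0.89, SE 0.20). On the other side LINC00494 (chromosome 20) read 4.89 and 5.60 in HepG2 CM272, against 4.40 and 4.47 in control (0.81, SE 0.23). LINC01305 (chromosome 2) read 3.84 and 3.73 with CM272, against 3.25 and 2.91 in control, all under the threshold. Treated arrays of both lay above their controls. LINC00668 (chromosome 18) read 6.06 and 6.32 with CM272, against 5.37 and 5.67 in control (0.67, SE 0.21). All 6 had adjusted p-values of 0.2274 or more.

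The genes called in LX2 were then read in HepG2. Of the 11 that rose in LX2, 3 had a positive value in HepG2, over a range of -0.56 to 0.16, and of the 6 that fell, 4 had a negative value, over a range of -0.30 to 0.20. Most of the 11 were hardly detected in HepG2: 8 of them were over the threshold in LX2 groups only. The difference of the CM272 effect, HepG2 minus LX2, passed the test for 3 LINC genes (1.23%, beside 1.18% of all genes), 1 with a positive difference (0.36% of all genes had one) and 2 with a negative one (0.825% of all genes). It was -2.85 for LINC00161 (SE 0.35, adjusted p = 0.008067), whose HepG2 arrays read 3.33 and 3.07 with CM272 and 3.27 and 3.36 in control. It was -2.09 for LINC00624 (SE 0.39, adjusted p = 0.041), where 1 HepG2 CM272 array read 1.70 and the other 2.70. It was 1.35 for LINC00842 (SE 0.19, adjusted p = 0.01714), which read 3.07 and 3.17 in HepG2 CM272 and 2.93 and 2.92 in control. All of these HepG2 values lay under the threshold, so the 3 differences set LX2 changes against a line with a dim signal. LINC00161 and LINC00624 were kept only through LX2 CM272, the group in which they are high, so their tests are tied to how they were chosen. For the other 14 the difference missed the test, which does not show that the lines act alike.

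**Figure D2:**
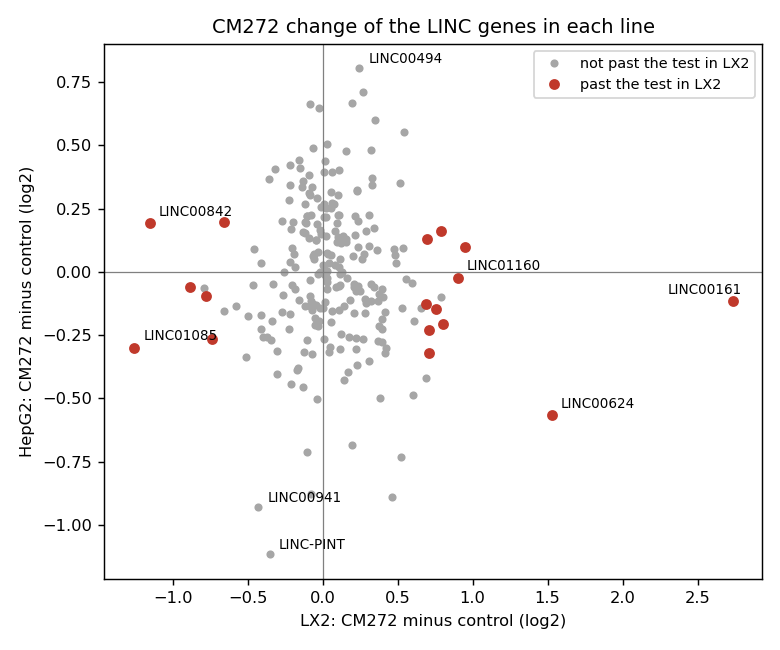
Change with CM272 (log2, CM272 minus control) of each LINC gene, in LX2 on the horizontal axis and in HepG2 on the vertical axis, with the 17 genes past the test in LX2 in red. LINC00161 lies at 2.73 in LX2 and -0.12 in HepG2, and LINC-PINT, the lowest in HepG2, at -0.35 and -1.12.

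Between the untreated lines, LINC genes differed by -3.97 to 3.59 log2 (HepG2 control minus LX2 control). Markers fit the labels in part. All 12 measured hepatocyte genes were over the threshold in HepG2 groups (ALB 13.2 log2 in HepG2 control and 3.59 in LX2 control). In LX2 control 3 of the 12 were over it, and in LX2 CM272 4 were. Of 7 measured stellate and myofibroblast genes, 5 were over it in LX2 control and 4 in HepG2 control. Vimentin (VIM) read 10.2 in LX2 control, against 3.67 in HepG2 control, and THY1, TIMP1, TAGLN and LUM were also higher in LX2 control. The other way went DES (5.58 in LX2 control, 5.91 in HepG2 control) and DCN (2.05 and 2.61). The stellate and fibroblast proteoglycan genes LUM and DCN were under the threshold in LX2. Over the threshold were 154 LINC genes in both lines, 35 in HepG2 groups only and 55 in LX2 groups only. Of the 135 over it in both control groups, 17 were higher in HepG2 control (12.6%) and 32 lower (23.7%), beside 17.4% and 37.7% of the 9981 genes over it in both controls. This split moved with the scaling. It was 31 higher and 23 lower of 143 after quantile normalization, beside 55.4% of all genes called in either direction. With array medians set equal it was 29 and 24 of 142, beside 55.5%. Those scalings moved the median over all genes, which was -0.27 log2 as deposited, to -0.01 and -0.04.

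Among LINC genes over the threshold in both lines, LINC00673 stood highest in HepG2. It read 7.25 and 7.27 in HepG2 control and 4.93 and 4.76 in LX2 control (2.42, SE 0.14, adjusted p = 4.078e-07), a 5.34-fold difference. LINC01002 (chromosome 19) differed by 2.09 (SE 0.20), LINC00668 by 1.40 (SE 0.21), LINC00574 (chromosome 6) by 1.20 (SE 0.24) and LINC01124 (chromosome 2) by 1.09 (SE 0.16). These 5 were higher in HepG2 control. On the other side LINC01106 (chromosome 2) read 4.55 and 4.77 in HepG2 control and 7.14 and 7.18 in LX2 control (-2.50, SE 0.15, adjusted p = 4.174e-07), 5.67-fold lower. LINC-PINT read 9.12 and 8.65 in HepG2 control, against 10.93 and 10.94 in LX2 control (-2.05, SE 0.23), so it was bright in both lines and lower in HepG2. LINC00265 (chromosome 7) differed by -2.13 (SE 0.20), LINC01123 (chromosome 2) by -1.9987 (SE 0.14) and LINC00630 (chromosome X) by -1.90 (SE 0.18). Of these 10 differences 9 passed in each setting in which the gene was fitted. That of LINC00265 was lost when the median of its probe sets was used (-0.30).

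Some LINC genes were bright in 1 line and dim in the other. Their difference is part of how they were chosen and is given without a test. LINC00261, also called DEANR1 and transcribed beside FOXA2 in endoderm, read 6.44 and 6.43 in HepG2 control and 3.05 and 2.63 in LX2 control. LINC00707 (chromosome 10) read 3.68 and 3.46 in HepG2 control and 7.10 and 7.20 in LX2 control. LINC00472 (chromosome 6) read 2.99 and 3.21 in HepG2 control and 6.95 and 7.19 in LX2 control. LINC00261 was thus the HepG2 gene of this set, and the others belonged to LX2. LINC02381, a gene of the HOXC cluster, read 3.61 and 3.07 in HepG2 control, against 6.77 and 6.68 in LX2 control. LINC01085, which fell with CM272 in LX2, read 2.91 and 2.78 in HepG2 control, against 6.78 and 6.60 in LX2 control. Over the 55 genes of LX2 groups only, the line difference had a median of -0.68 log2, and over the 35 of HepG2 groups only a median of 0.58.

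**Figure D3:**
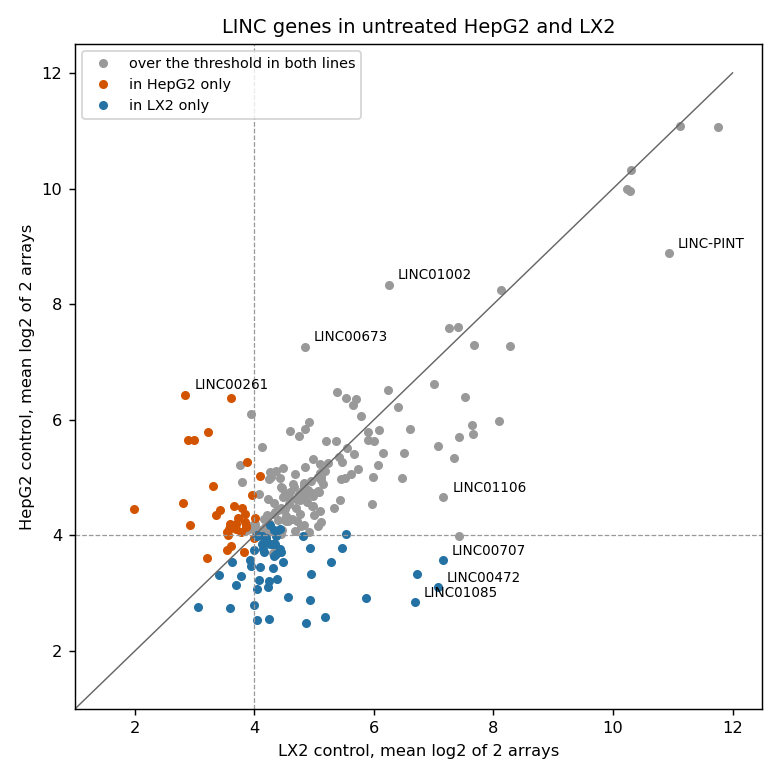
Mean log2 of the 2 control arrays of each LINC gene, LX2 on the horizontal axis and HepG2 on the vertical axis, with the brightness threshold of 4 dashed and the line of equal levels drawn. Orange points were over the threshold in HepG2 only (35) and blue points in LX2 only (55); LINC00261 lies high in HepG2, and LINC00472, LINC00707 and LINC01085 high in LX2.

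Signals of different probe sets depend on their probes and do not rank transcripts by abundance. LINC genes were dim as a class, with a median mean signal of 4.52 log2, beside 4.79 for other lncRNAs and 6.09 for protein-coding genes. Only 46 of the 244 were kept when the threshold was set at 6. The brightest 5 were LINC00987, LINC01347, LINC01000, LINC01061 and LINC00999, with means over the 8 arrays of 11.3, 11.2, 10.4, 10.1 and 10.0. LINC00987 stayed between 10.6 and 11.9 over the 8 arrays. By chromosome, 32 of the 244 lay on chromosome 1, 22 on chromosome 2 and 16 on chromosome 10.

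Lists of known lncRNAs placed these genes beside their class. Of 11 LINC genes known from liver, 5 could be tested. None passed the test with CM272 in either line, and the median change was 0.02 in LX2. Between the lines 3 of the 5 were higher in HepG2 control and 0 lower (median 0.63): LINC00261, LINC00574 and LINC01093 (0.63, SE 0.17, adjusted p = 0.0102). LINC00261 and LINC01093 were not over the threshold in LX2 control, so their difference is tied to how they were chosen. The other probe set of LINC01093 went the other way, with means of 3.77 in HepG2 control and 4.14 in LX2 control. Over all genes 17.7% were higher and 40.5% lower in HepG2 control. Of 30 LINC genes studied in cancer or stroma, 11 could be tested. In LX2 LINC00520 and LINC00673 rose and LINC00665 fell with CM272 (median -0.26), beside 3.79% of all genes higher and 4.63% lower. LINC00520 was kept only through LX2 CM272, the group in which it is high. None of the 11 passed in HepG2 (median -0.13). Between the lines 3 were higher in HepG2 control and 5 lower (median -0.46), among them LINC00511 at 0.73 and LINC00941 at -1.52 log2. LINC00472, LINC00707 and LINC00460 of the 5 were under the threshold in HepG2.

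Of 69 other named lncRNAs, 39 could be tested. In LX2 with CM272, MEG3, an imprinted RNA expressed from the maternal copy, read 7.08 and 7.02, against 6.51 and 6.42 in LX2 control, and rose by 0.58 (SE 0.13, adjusted p = 0.03147). NORAD, which binds the PUMILIO proteins, fell by 0.87 log2, read at 9.89 and 10.38 in LX2 CM272 against 10.95 and 11.07 in control (adjusted p = 0.01945). The snoRNA host gene SNHG18 fell by 0.97 and MIR17HG, host of a microRNA cluster, by 0.63, and in MIR17HG all LX2 arrays were under the threshold. In HepG2 0 of the 39 passed in limma. At an unadjusted p under 0.05 the counts there were 3 higher (beside 4.76% of all genes) and 3 lower (beside 6.7%). Their median change was -0.07 in LX2 and -0.03 in HepG2. Between the lines 14 of the 39 were higher in HepG2 control (beside 17.7% of all genes) and 20 lower (beside 40.5%). Among the higher, HULC, PURPL and MIR17HG were not over the threshold in LX2 control. Among the lower, CASC15, FENDRR, GIHCG, HEIH, HOTAIR, MEG3, MIR100HG, MIR181A1HG, MIR31HG and SNHG15 were not over it in HepG2 control. The differences of these genes are tied to how they were chosen, so the 2 counts are a description. HULC, a lncRNA named for its rise in liver cancer, was among the higher at 3.75 log2, and MIR31HG among the lower at -5.79, each of them dim in the other line.

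LincRNAs can share control regions with the genes beside them, so the closest tested gene on either side of the 17 was read in LX2 (order from RefSeq). Only tested genes could count as neighbours, and no limit was set on their distance, so a neighbour here may lie far from its LINC gene. Of 35 such neighbours 3 passed the test, or 8.57%, beside 8.42% of all genes. All 3 moved in the direction of their LINC gene. HNRNPA1P33, a pseudogene that overlaps LINC00842, fell by 1.54 (SE 0.32, adjusted p = 0.02297); on the array, probes for overlapping genes can read shared sequence. TCP11L1, beside LINC00294, fell by 0.64 (SE 0.13, adjusted p = 0.02283). CDC14A, a cell cycle phosphatase gene beside LINC01349, rose by 0.69 (SE 0.15, adjusted p = 0.02843). The neighbours of LINC00161 did not pass: APP, which encodes the amyloid precursor protein, differed by -0.15, and the methyltransferase gene HEMK2 by -0.28. Both neighbours of LINC00624 had negative values, -0.49 for the chromatin remodeller gene CHD1L (adjusted p = 0.05342) and -0.43 for the Wnt coactivator gene BCL9. SOX9, beside LINC00673, had a value of 0.59 (SE 0.16, adjusted p = 0.05243).

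Over 243 LINC genes with a tested neighbour, the nearest one was protein coding for 170, another LINC gene for 19, and overlapped the LINC gene for 14. Across these genes, which are not independent and share all 8 arrays, the CM272 change in LX2 of the LINC gene and of its nearest neighbour had a Pearson r of 0.08, and the line difference an r of 0.22.

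**Figure D4:**
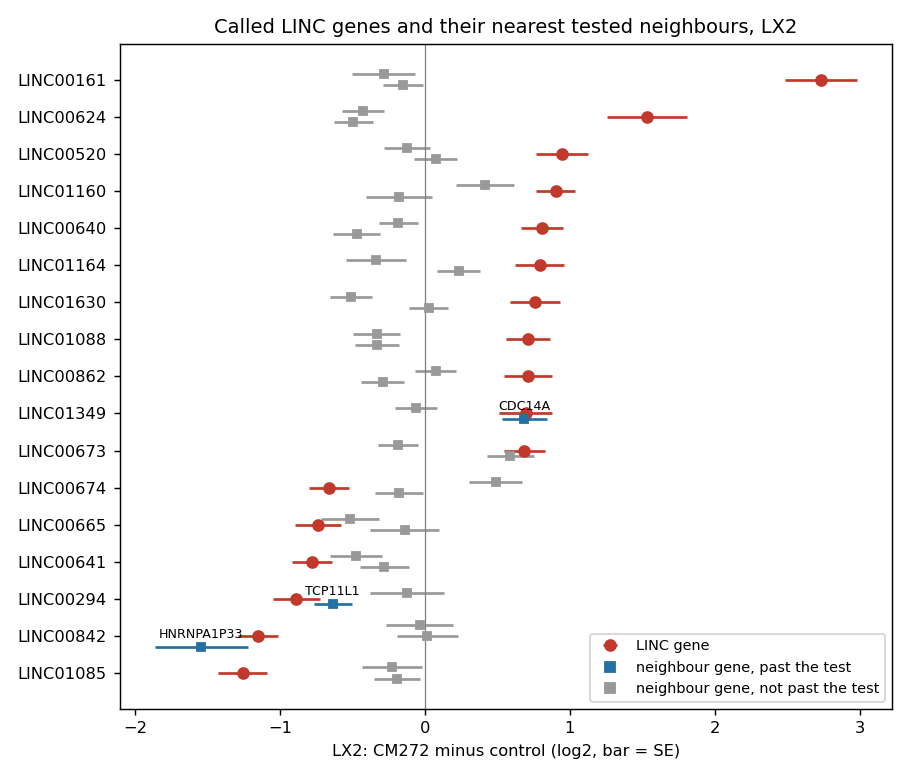
Change in LX2 with CM272 (log2, bars are SE) of the 17 LINC genes past the test (red circles) and of their closest tested neighbours (squares, blue where they passed and grey where they did not). Blue squares stand at TCP11L1, HNRNPA1P33 and CDC14A; the neighbours of LINC00161 lie at -0.15 and -0.28 while the gene itself lies at 2.73.

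Promoters could be matched for 185 LINC genes (201 promoters, RefSeq, GRCh38.p14, the windows described above). They held a median of 9 CG dinucleotides, beside 14 over all 35116 promoters, and 47.3% held at least 10, beside 56.4%. Among the genes called in LX2, 6 of the 11 that rose had a promoter in the table, 1 each, with a median of 2 CG (LINC00624, LINC00520, LINC01160, LINC01164 and LINC01349 are not in it), and the 6 that fell had 8 promoters with a median of 7.5. Of the rising genes, LINC00161, LINC00640 and LINC01088 held 1 CG, LINC01630 and LINC00862 held 3, and LINC00673 held 26. Of the falling genes, LINC00842 held 31, LINC00674 held 30 and LINC00665 held 12 and 15 at its 2 starts, while LINC00641, LINC00294 and LINC01085 held 3 or fewer.

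Short motifs were searched on both strands. The AP-1 motif TGANTCA was in 12.4% of LINC promoters, beside 7.71% of all promoters. Among the 6 rising genes whose promoter could be matched, LINC01630 was the 1 with it. TATAAA was in 12.4%, beside 11.5%, LINC00161 and 1 start of LINC00641 included. The GC box GGGCGG, which holds a CG itself, was in 39.3%, beside 45.0%, with LINC00673, LINC00674, LINC00665 and LINC00842 among them. A match is a stretch of letters and not a bound site, and no methylation was measured in these samples.

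**Figure D5:**
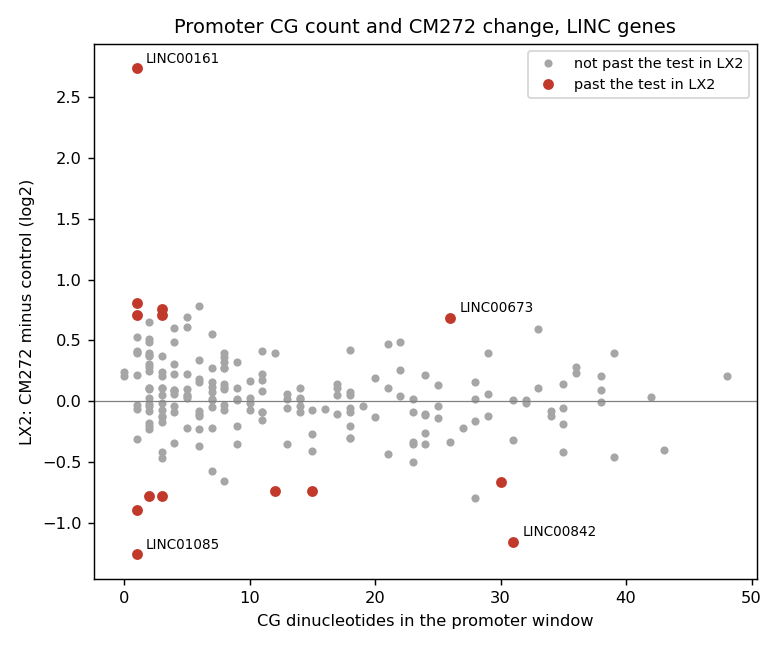
CG dinucleotides in the 300-base promoter window of each matched LINC gene (horizontal axis, 1 point per promoter) against the change in LX2 with CM272 (log2, vertical axis), with genes past the test in LX2 in red. Red points lie at both ends of the axis, LINC00161 at 1 CG and 2.73 log2 and LINC00842 at 31 CG and -1.15 log2.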

How the data were processed

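Total RNA (300 ng per sample, 200000 cells seeded per well) was hybridised to Affymetrix arrays, 1 per sample. The deposited table holds log2 expression values, made by the authors with RMA (background correction, normalization between arrays and summary per probe set), per the submitters' processing notes. The software version and the genome build of the array are not given in the sources used here. RMA compresses differences of dim probe sets, and array medians lay between 4.19 and 4.54. Precision is limited by the 2 arrays per group.

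From the platform annotation, 16098 of 48416 probe sets had 1 symbol, 0 had several and 32318 had none, which left 14884 symbols. The brightest probe set stood for each symbol. All 4 comparisons came from 1 two-sided fit of limma 3.58.1 (R 4.3.3) over the 4 groups, with 4 residual and 5.47 prior degrees of freedom and Benjamini-Hochberg adjustment over 12239 genes at 0.05. Fold changes are differences of log2 values. An exact permutation test of 2 arrays against 2 cannot go below p = 0.333 and was not used. The fit was tested on simulated data. Figures were drawn with matplotlib 3.10.9. The LINC genes and lists were chosen with earlier results of these data known. Named were, per direction, the 10 largest changes past the test in each CM272 comparison (the largest 3 as values where fewer than 3 passed), the 5 largest differences between effects and between lines, the 5 brightest, the 5 brightest of 1 line only, and the genes at the threshold. The alternatives covered the filter, scaling, probe set choice, robust fit, array weights, replicate block, shared probe sets, each line alone and each array left out.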

Additional observations from a re-analysis of the deposited data

Results flagged for a closer look

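For 3 LINC genes the effect of CM272 differed between the lines by a test of the difference itself (HepG2 minus LX2, limma with Benjamini-Hochberg adjustment). The difference was -2.85 log2 for LINC00161, and it fell short of the threshold in 1 setting, without LX2 control replicate 1 (-2.56, adjusted p = 0.0554). The difference was -2.09 for LINC00624, a call lost in 10 of the 16 other settings, and 1 HepG2 CM272 array read 1.70 there, against 2.70 in the other. The difference was 1.35 for LINC00842, a call lost in 5 of the 16 settings. LINC00161 and LINC00624 were kept only through LX2 CM272, the group in which they are high, so their tests are tied to how they were chosen. All HepG2 values of the 3 genes lay under the brightness threshold, so the differences set LX2 changes against a dim signal.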

How the results depend on the processing

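In LX2, 17 LINC genes passed. The count was 11 with the filter at log2 6 (3 higher, 8 lower, of 46 LINC genes, 23.9%, beside 18% of all genes), 6 with array weights (2 higher, 4 lower, beside 2.31% of all genes) and 5 with each line fitted alone (beside 1.62%), and 1 to 34 with 1 array left out (beside 0.446% to 20%). LX2 control replicates 1 and 2 gave 2 and 1, and LX2 CM272 replicate 2 gave 34. With fewer arrays the lone array of a group is assumed to vary like the other groups. All 17 genes kept their direction in each setting in which they were fitted, and LINC00161 alone also kept its call (adjusted p from 2.849e-04 to 0.01206). In HepG2 the count was 0 in each setting run. For the difference between effects the count of 3 (beside 1.18% of all genes) became 5 with the median of probe sets (beside 1.17%). It was 5 in the robust fit (beside 2.34%) and 5 with each probe set on its own (chosen after seeing the data, beside 1.13% of probe sets). The count and the share of all genes called both moved with 1 array left out. Between the lines the count of 49 of 135 (beside 58.1% of all genes) became 166 of 459 without a filter (beside 50.8%). It became 7 of 16 with the filter at log2 6 (beside 71.3%). Both of these change how many genes are tested. Here too the count and the share of all genes moved with 1 array left out. Other causes were not tested. No named LINC gene changed sign, but the balance of higher and lower calls did turn, as the splits show. Replicate numbers are shared by the titles, but arrays of 1 number deviated together only weakly (r 0.08 in LX2 and 0.07 in HepG2, over genes). A fit with the replicate number as a block called 16 LINC genes in LX2 (beside 7.61% of all genes) and 0 in HepG2 (beside 0.00817%). It called 3 for the difference (beside 0.972%) and 46 of 135 between the lines (beside 57.7%). Dim signals limit most LINC genes, as 46 of 244 had a group over log2 6.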

Other observations

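A further 18 LINC genes were over the brightness threshold in HepG2 CM272 but not in HepG2 control, and 15 in HepG2 control but not in HepG2 CM272. In LX2 these counts were 24 in CM272 but not in control and 13 in control but not in CM272. Over the threshold in LX2 CM272 and in no other group were 13 LINC genes, of which LINC00161, LINC00520, LINC00624, LINC01088, LINC01160 and LINC01349 passed the test. All 13 were kept only through that group, so passing there is tied to how they were chosen. These threshold counts are a description, and the same counts over all genes were not taken. LINC-PINT had lower values with CM272 on its other 2 probe sets in LX2 as well, at -0.39 and -0.51 log2, without a call. LINC00173 gave -0.30 on its brightest probe set and 0.22, 0.51 and 0.42 on the others. LINC00685 and LINC01623 share their values with another named probe set, and neither was called with CM272.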
